A study of Homo sapiens with 6 samples.

Results

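The genes described here belong to transforming growth factor beta (TGF-β), activin and bone morphogenetic protein (BMP) signalling. They were taken by symbol from the nCounter Breast Cancer 360 table, as every gene whose name starts with TGFB, INHB, ACVR, SMAD, BMP, GDF or LTBP, together with ZFYVE9 and the ID genes. The rule found 29 of the 758 genes of the table. They are 13 ligands, 1 latent TGF-β binding protein, 7 receptors, 5 genes on the SMAD side and 3 ID genes. TGFBR1, SMAD2 and ID3 are not in the table, so they were not measured. The rule itself uses symbols and no measured value.

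RNA came from JIMT-1, an established HER2+ breast cancer cell line derived from a tumor resistant to trastuzumab. For 24 h, 3 samples were kept with PBS alone (CTL) and 3 with aCT1 at 250 µM. The peptide aCT1 mimics the tail of connexin 43, a gap junction protein, and carries biotin and a cell-penetrating antennapedia part. The labels name no control peptide. All 6 samples are 1 cell line, and the labels do not say whether the samples of a group were separate cultures, so p-values measure the spread between these samples, which may be technical. On this platform 1 barcoded probe per gene is counted directly, and the authors scaled the counts to housekeeping genes. The comparison asks whether signalling genes of the panel differed after 24 h of peptide.

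In this family, secreted ligands bind pairs of type I and type II receptor kinases, and TGF-β itself is stored outside the cell in a latent complex held by LTBP proteins. Activated receptors phosphorylate SMAD3 on the TGF-β and activin branch, or SMAD1 and SMAD5 on the BMP branch, and these enter the nucleus with SMAD4. The ID genes, which encode inhibitors of basic helix-loop-helix transcription factors, are classic targets of the BMP branch. In breast epithelium the TGF-β branch is known both for restraining growth and for promoting epithelial-to-mesenchymal transition.

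The total normalized count per sample lay between 1453026 and 1484226. Of the 8 epithelial and HER2+ markers listed for this cell line, 4 are in the table (ERBB2, GRB7, KRT7 and CDH1), with group means between 5835 and 10121 normalized counts. Of 15 markers of T cells, leukocytes, endothelium and fibroblasts, 8 are in the table, with group means between 3.35 and 72.2. Their summed level was 246 to 256 normalized counts in the CTL samples and 215 to 236 in the aCT1 samples, with 1 of the 8 at an unadjusted limma p under 0.05. Its part in the results was not tested. In RNA from whole cultures, fewer cells that express a gene and less RNA per cell cannot be told apart.

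In JIMT-1 cells, all SMAD-side genes, 4 of the 7 receptors, ID1 and ID4 had means of 50 normalized counts or more, while 9 of the 13 ligands, the other 3 receptors and ID2 lay under 50. In the CTL samples, ID1 was highest at 8652 ± 455 normalized counts (SD, n = 3), followed by the type I BMP receptor BMPR1A at 2353 ± 14.8 (SD, n = 3) and by ZFYVE9 at 1629.6 ± 51.2 (SD, n = 3). ZFYVE9 encodes SARA, an endosomal anchor that presents SMADs to the activated TGF-β receptor. SMAD5, SMAD4 and SMAD1 came next, with means of 1407, 1156 and 741. Then came BMPR2, ACVR1B, TGFBR2, ID4, SMAD3, LTBP1, TGFB2, INHBB, TGFB1 and INHBA, from 675 down to 63.5. Neighbours in this order had CTL values that did not overlap, except BMPR2 with ACVR1B, TGFBR2 with ID4, and SMAD3 with LTBP1. Counts are not divided by length, since 1 probe reads each transcript, and probes differ in efficiency, so this is an order of counts and not of molecules.

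**Figure D1:**
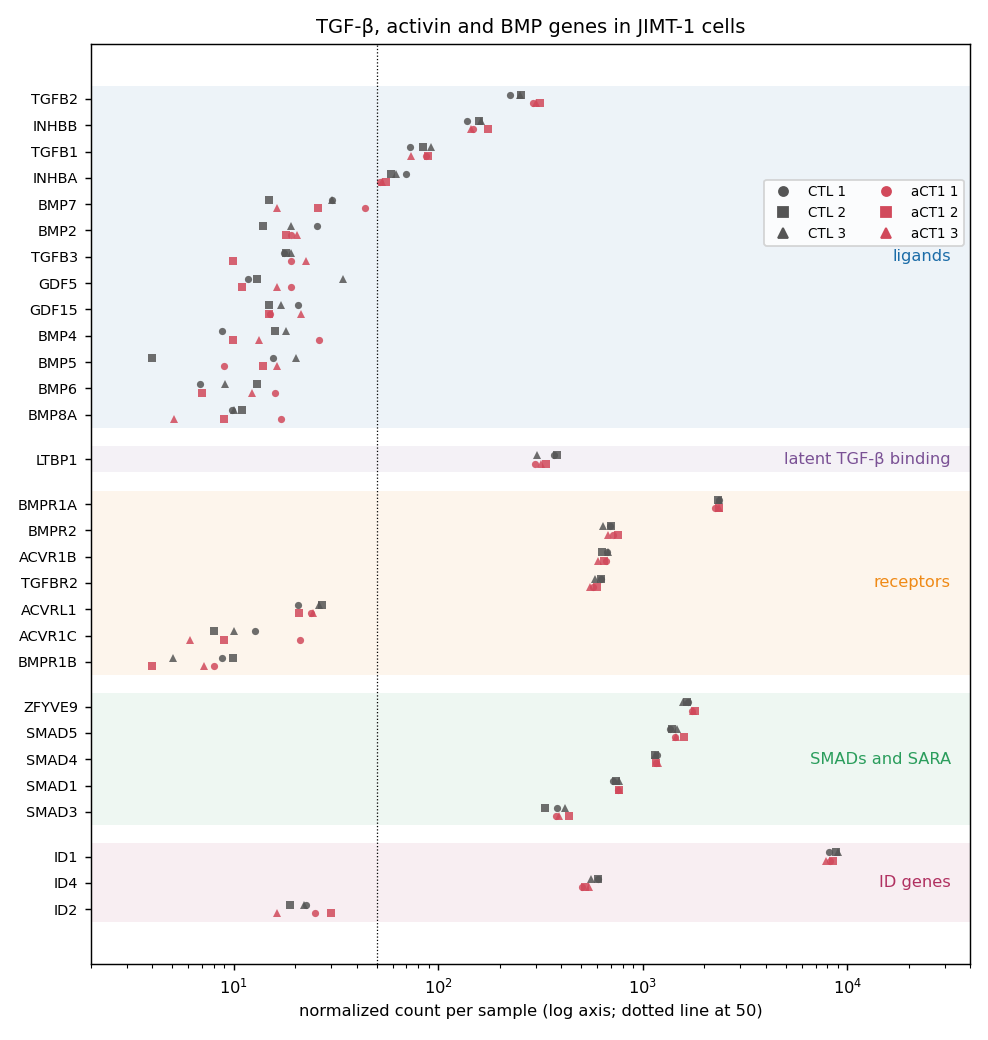
Normalized counts of the 29 genes in each of the 6 samples, on a log axis, grouped by role. Grey symbols are CTL and red symbols aCT1, the symbol shape gives the replicate, and the dotted line marks 50. The 13 genes to the left of the line are 9 ligands, 3 receptors and ID2, and the 16 genes to the right include all SMAD genes and ZFYVE9.

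The other 13 genes had a mean under 50 over the 6 samples, and none of their values in any sample exceeded 44.1 normalized counts. All 8 BMP and GDF ligands were among them (BMP2, BMP4, BMP5, BMP6, BMP7, BMP8A, GDF5 and GDF15), with means between 10.3 and 27.0. The other 5 were TGFB3, ID2, the BMP type I receptor BMPR1B, the nodal and activin receptor ACVR1C, and ACVRL1, a TGF-β and BMP9 receptor best known from endothelium. All 13 lay below the highest mean of the non-epithelial markers, whose median was 20.8, so a low level here cannot be told from background counts. INHBA, just above 50, also lay below that highest marker in both groups. The summed BMP and GDF ligands were 129 ± 28.6 normalized counts in CTL and 132 ± 29.2 in aCT1 (SD, n = 3 each). The 5 TGFB and INHB genes together held 78.8 to 85.1% of all ligand counts in the CTL samples and 78.3 to 85.4% in the aCT1 samples, so the ranges overlapped.

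Across the 29 genes, aCT1 and CTL differed little. In limma, with a variance trend fitted over all 758 genes, an unadjusted p under 0.05 was reached by 3 of the 29 genes, which is 10.3%, and the share over the whole table was 9.37%. TGFB2 and ZFYVE9 were higher in aCT1 (2 of 29, with 6.46% of the table on that side) and ID4 was lower (1 of 29, with 2.9% of the table). After Benjamini-Hochberg adjustment over the table, 0 of the 29 genes and 0 of the 758 genes passed 0.05, and the smallest adjusted limma p among the 29 was 0.189, for TGFB2. In 4 of the 29 genes, or 13.8%, no sample of one group fell within the range of the other, against 14.2% of the table. TGFB2 and ZFYVE9 were separated upward in aCT1 (9.37% of the table) and ID4 and INHBA downward (4.88% of the table). The median log2 fold change was 0.013 over the 29 genes and 0.018 over the table, and by role it was 0.013 for the ligands, -0.053 for the receptors and -0.080 for the ID genes. Both shares were close to the background, so the counts alone do not set this pathway apart from the rest of the panel. Over the table, 49 of the 71 genes with an unadjusted p under 0.05 were higher in aCT1, and under quantile normalization 41 of 83 were.

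**Figure D2:**
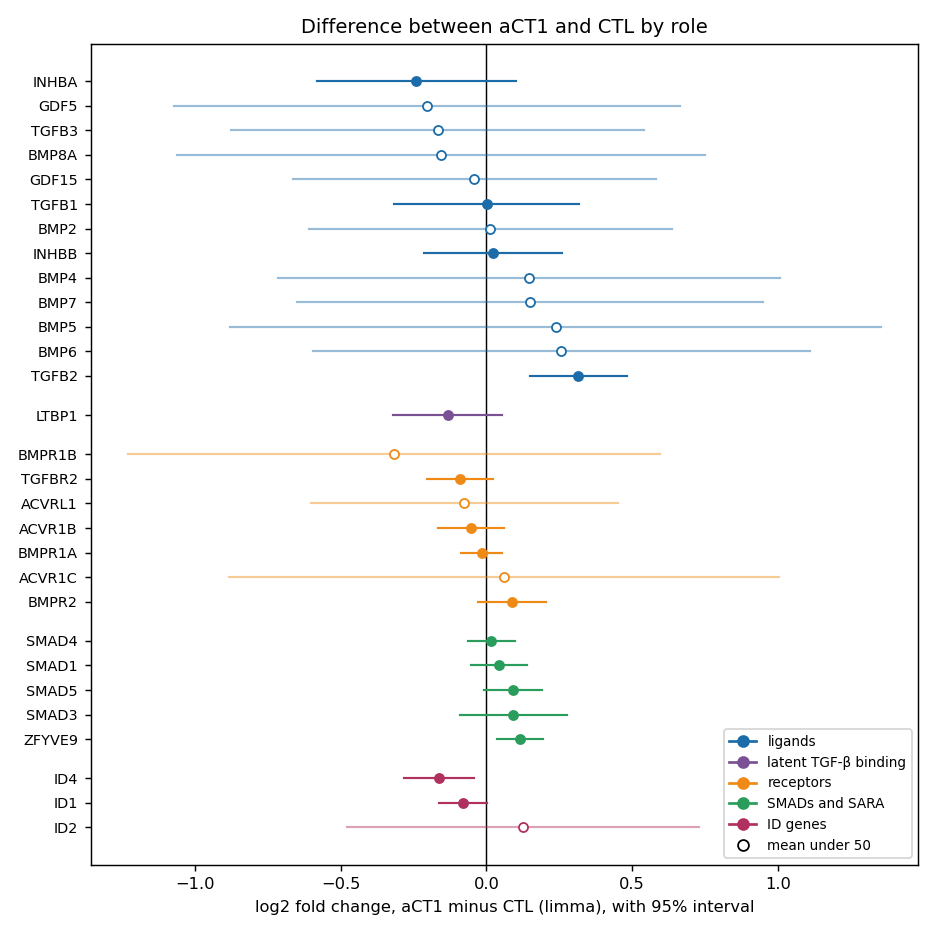
Log2 fold change of each of the 29 genes, aCT1 minus CTL, with its 95% interval from limma, grouped by role. Open circles are genes with a mean under 50, whose standard errors run from 0.24 to 0.52. The intervals of TGFB2, ZFYVE9 and ID4 lie clear of 0.

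The promoters of the 3 genes with an unadjusted p under 0.05 are shown, to place the genes and the sequence before their starts beside their values. No binding was measured. Each runs over the 250 bases before the RefSeq transcription start (GRCh38.p14), 5′ to 3′ on the gene's strand. Capitals mark the letters searched on both strands: CAGAC, the short SMAD-binding element, and GGCGCC, a GC-rich element bound by BMP-branch SMADs, which do not overlap here. TGFB2 lies on chromosome 1 (promoter chr1:218345086-218345335, plus strand), ZFYVE9 on chromosome 1 (chr1:52141839-52142088, plus strand) and ID4 on chromosome 6 (chr6:19837120-19837369, plus strand). The genes end at positions 218444619, 52346634 and 19842197.
TGFB2: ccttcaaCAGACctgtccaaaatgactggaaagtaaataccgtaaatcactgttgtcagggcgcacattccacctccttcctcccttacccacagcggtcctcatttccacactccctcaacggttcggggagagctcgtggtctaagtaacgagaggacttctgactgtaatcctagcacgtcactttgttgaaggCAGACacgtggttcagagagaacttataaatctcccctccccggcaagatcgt
ZFYVE9: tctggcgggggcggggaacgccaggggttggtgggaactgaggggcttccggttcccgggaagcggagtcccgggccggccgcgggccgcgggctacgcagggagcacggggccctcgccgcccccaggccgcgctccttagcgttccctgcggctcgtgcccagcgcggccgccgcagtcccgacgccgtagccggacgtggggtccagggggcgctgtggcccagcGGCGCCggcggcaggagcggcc
ID4: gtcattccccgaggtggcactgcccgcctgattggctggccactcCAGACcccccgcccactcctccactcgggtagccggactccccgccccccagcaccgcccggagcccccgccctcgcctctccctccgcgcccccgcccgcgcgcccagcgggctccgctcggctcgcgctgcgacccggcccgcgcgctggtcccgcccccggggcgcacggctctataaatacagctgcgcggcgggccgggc

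CAGAC was found 2 times in the TGFB2 window, once in the ID4 window and not in that of ZFYVE9, which held GGCGCC once. The G and C content of the windows was 50.4%, 78.8% and 79.6% for TGFB2, ID4 and ZFYVE9. Of 27305 RefSeq promoters of the same length, 37.8% held CAGAC and 16.1% held GGCGCC on either strand. Among the 26 of the 29 genes with a promoter in the table used, 9 held CAGAC and 7 held GGCGCC. The palindrome GTCTAGAC was in 0.176% of all promoters and in 0 of the 26. A match describes these letters in this window and is not a binding site.

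Of the 13 ligands, 1 had an unadjusted limma p under 0.05 (7.69%, against 9.37% of the table), and that gene was TGFB2. It encodes TGF-β2, 1 of the TGF-β isoforms, and had 224, 254 and 250.3 normalized counts in CTL against 290.3, 314 and 301 in aCT1. The lowest aCT1 sample stood above the highest CTL sample. The means were 243 ± 16.4 and 302 ± 11.8 (SD, n = 3 each), a fold of 1.24, with a log2 fold change of 0.32 (limma standard error 0.077, 95% interval 0.15 to 0.48, unadjusted p = 0.00126, adjusted p = 0.189). Counting alone gives a standard error of 0.072. An exact permutation test of 3 samples against 3 gave p = 0.1, the smallest it can give. Any gene whose groups do not overlap gets this value.

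TGFB1, which encodes the most widely studied isoform, showed no such difference. Its values were 72.4, 84.7 and 92.5 in CTL and 87.1, 88.7 and 73.6 in aCT1, and the groups overlapped fully. The means were 83.2 ± 10.1 and 83.1 ± 8.30 (SD, n = 3 each). The 95% interval of its log2 fold change ran from -0.32 to 0.32 in limma, so a change of TGFB1 as large as that of TGFB2 was not detectable at this depth. TGFB2 made up 71.3%, 71.2% and 69.2% of the counts of TGFB1, TGFB2 and TGFB3 in CTL and 73.2%, 76.1% and 75.8% in aCT1. TGFB2 was the main TGFB signal in both groups. The shares did not overlap, but they rest on the same TGFB2 values and add no separate evidence.

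The inhibin beta genes encode the subunits of the activins. INHBA had 69.5, 58.8 and 62.3 normalized counts in CTL and 52.1, 55.8 and 53.1 in aCT1, with no overlap between groups. The means were 63.5 ± 5.43 and 53.7 ± 1.93 (SD, n = 3 each), and the log2 fold change was -0.24 (limma standard error 0.16, unadjusted p = 0.152, adjusted p = 0.704). Counting alone gives a standard error of 0.15 at this level. The highest non-epithelial marker means were 72.2 in CTL and 62.1 in aCT1, above those of INHBA, so its level cannot be told from background counts either. Without the variance trend, limma gave INHBA a standard error of 0.074 and an unadjusted p of 0.0222. Of the 17 alternatives listed below, 3 gave INHBA an unadjusted p under 0.05. INHBB had 139, 158 and 162 in CTL and 148, 174 and 144 in aCT1, with overlapping groups and a log2 fold change of 0.024 (95% interval -0.21 to 0.26 in limma). INHBA made up 33.3%, 27.2% and 27.8% of the counts of both genes in CTL and 26.0%, 24.2% and 26.9% in aCT1. These shares did not overlap, but they rest on the same INHBA values and add no separate evidence.

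LTBP1, which tethers latent TGF-β to the matrix, had 369, 379 and 304 normalized counts in CTL and 298, 337 and 319.9 in aCT1. CTL replicate 3 lay among the aCT1 values. The log2 fold change was -0.13 (limma standard error 0.087, unadjusted p = 0.150). Without CTL replicate 3 it was -0.23, with an unadjusted limma p of 0.00804, so 1 sample decides this value.

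None of the 7 receptors had an unadjusted limma p under 0.05, against 9.37% of the table. In all 7 the groups overlapped, while 14.2% of the table had groups that did not. With only 7 genes, these counts do not set the receptors apart from the table. BMPR1A, the receptor with the highest counts, had 2369, 2340.0 and 2349 in CTL and 2256, 2373 and 2355 in aCT1. Its log2 fold change was -0.016, with a 95% limma interval from -0.086 to 0.054. TGFBR2, the type II TGF-β receptor, had 622, 623 and 587 in CTL and 571, 598 and 554 in aCT1, and 1 aCT1 value lay inside the CTL range. Its log2 fold change was -0.090 (limma standard error 0.053, unadjusted p = 0.113). Under quantile normalization it was -0.12 (limma, unadjusted p = 0.0422). The other alternatives listed below all gave TGFBR2 an unadjusted p above 0.05. BMPR2, the type II BMP receptor, had a log2 fold change of 0.088 (limma standard error 0.055) and ACVR1B, the type I activin receptor, one of -0.053 (limma standard error 0.052). The summed receptor counts were 4342 ± 46.6 in CTL and 4298 ± 97.1 in aCT1 (SD, n = 3 each).

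On the SMAD side, all 5 genes had a higher mean in aCT1, except that SMAD1 was at -0.0012 (log2 fold change) under quantile normalization. Beside 9.37% of the table, 1 of the 5 had an unadjusted limma p under 0.05. That gene was ZFYVE9, with 1667, 1650.0 and 1571 normalized counts in CTL and 1733, 1803 and 1763 in aCT1. The 2 groups were apart, with 1667 as the highest CTL and 1733 as the lowest aCT1 value. The means were 1629.6 ± 51.2 and 1766 ± 34.9 (SD, n = 3 each), an increase of 8.40%, with a log2 fold change of 0.12 (limma standard error 0.037, 95% interval 0.037 to 0.20, unadjusted p = 0.00722, adjusted p = 0.304).

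SMAD5 had 1358, 1389 and 1475 normalized counts in CTL and 1446, 1593 and 1461 in aCT1. CTL replicate 3 was above aCT1 replicates 1 and 3. Its log2 fold change was 0.092 (limma standard error 0.046, unadjusted p = 0.0680). The unadjusted limma p was 0.0170 without CTL replicate 3 and 0.0478 without aCT1 replicate 1. It lay between 0.0504 and 0.307 when any other sample was left out, and was 0.265 with quantile normalization. Of the 17 alternatives listed below, 2 gave SMAD5 an unadjusted p under 0.05. SMAD1, the other BMP-branch SMAD of the panel, had a log2 fold change of 0.044 (limma standard error 0.045), and its 3 aCT1 values lay between 759.9 and 766. SMAD3, the TGF-β and activin branch SMAD, had 382, 332 and 416 in CTL and 377, 435 and 388 in aCT1, with a log2 fold change of 0.092 (limma standard error 0.085). SMAD4, the partner shared by both branches, had a log2 fold change of 0.017 with a 95% limma interval from -0.064 to 0.097.

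The median log2 fold change of the 5 SMAD-side genes was 0.092, beside 0.018 over all genes of the table, of which 58.8% had a log2 fold change above 0. Their summed counts were 5302, 5263 and 5366 in CTL and 5482, 5759 and 5558 in aCT1, which did not overlap. ZFYVE9 and SMAD5 have the highest counts of the 5 and weigh most in that sum. The groups overlapped in each of the 4 SMAD genes. The sum includes the separated ZFYVE9 values given above, so it adds no separate evidence of a shift of the SMAD side.

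The ID genes had the highest and among the lowest counts of the pathway. ID1 had 8137, 8820.5 and 8999 normalized counts in CTL and 8198, 8470.1 and 7871 in aCT1, and CTL replicate 1 lay inside the aCT1 range. Its log2 fold change was -0.080 (limma standard error 0.038, 95% interval -0.16 to 0.0020, unadjusted p = 0.0549). Its SD was 4.89 times the spread from counting in CTL and 3.32 times in aCT1, the only gene of the 29 above 3 times, so its samples varied by more than their depth gives. The unadjusted limma p of ID1 was 0.00478 without CTL replicate 1 and 0.0238 without aCT1 replicate 2. It lay between 0.0993 and 0.199 when any other sample was left out. Without the variance trend, limma gave a standard error of 0.057 and an unadjusted p of 0.215. Of the 17 alternatives listed below, 6 gave ID1 an unadjusted p under 0.05.

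ID4 had 602, 607 and 558 normalized counts in CTL and 506, 524 and 548 in aCT1. The groups were apart, but only narrowly, with 558 as the lowest CTL and 548 as the highest aCT1 value. The means were 589 ± 27.0 and 526 ± 21.1 (SD, n = 3 each), a change of -10.7%, and the log2 fold change was -0.16 (limma standard error 0.056, 95% interval -0.28 to -0.043, unadjusted p = 0.0118, adjusted p = 0.313). The unadjusted limma p was 0.0522 without CTL replicate 2 and 0.0578 without aCT1 replicate 1. ID2 had 18.9 to 22.5 in CTL and 16.4 to 29.9 in aCT1, too few counts to compare (limma standard error 0.28). ID1 made up 92.9 to 93.9% of the summed counts of ID1, ID2 and ID4 in each of the 6 samples.

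**Figure D3:**
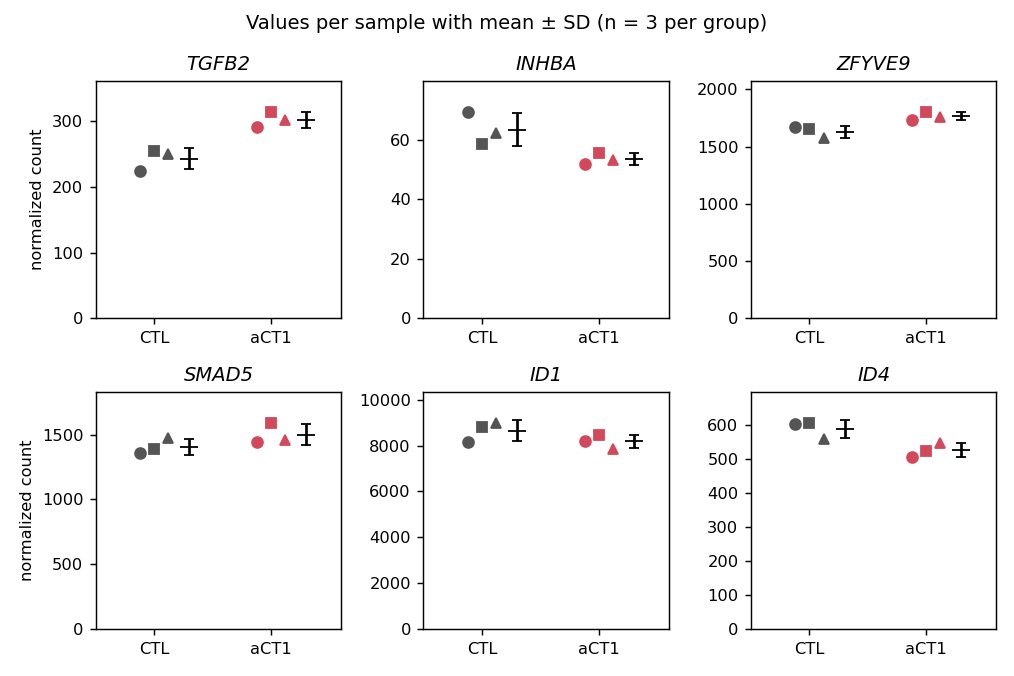
Normalized counts of 6 genes in each sample, on linear axes from 0, with the mean and SD of each group (n = 3) beside the points. TGFB2 and ZFYVE9 lie higher and INHBA and ID4 lower in all 3 aCT1 samples, while the groups of SMAD5 and ID1 overlap.

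None of the 13 genes with a mean under 50 had an unadjusted limma p under 0.05, and the groups overlapped in all 13. Their smallest unadjusted p was 0.467, for BMPR1B. Counting alone gives their log2 fold changes standard errors of 0.23 to 0.44, so a difference the size of that of TGFB2 would not have been detectable in them. In the table as a whole, 4.0% of the genes with a mean under 50 and 13.4% of those at 50 or more had an unadjusted p under 0.05. Of the 16 pathway genes at 50 or more, 3 did, or 18.8%. Groups did not overlap in 8.92% of the table's genes under 50 and in 18.2% of those at 50 or more. Among the 16 pathway genes it was 25.0%. GDF5 had the widest CTL spread of the low genes, from 11.7 to 34.2 normalized counts.

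**Figure D4:**
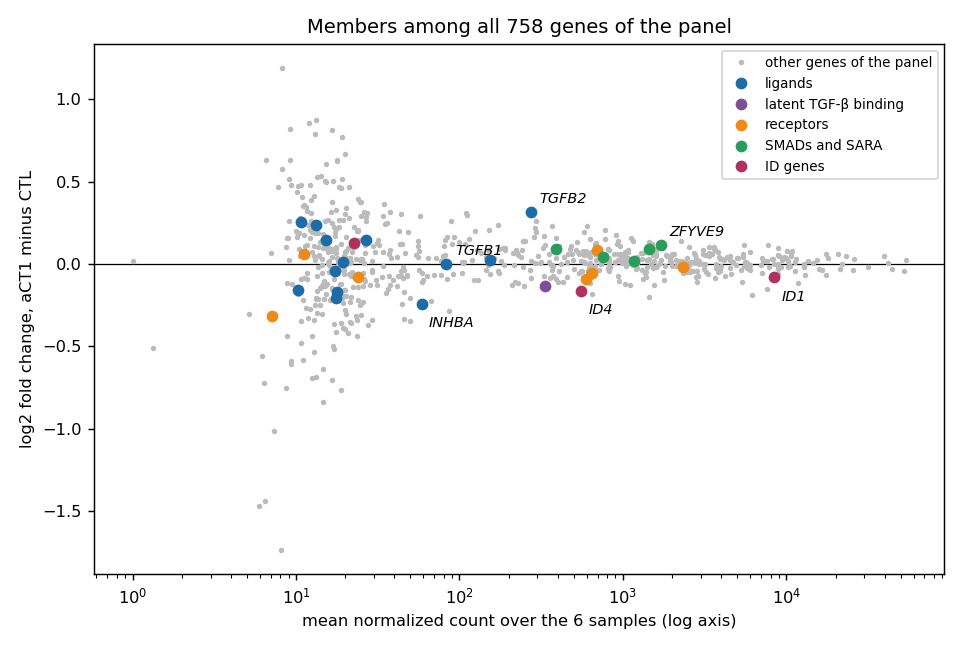
Log2 fold change (aCT1 minus CTL) against the mean normalized count over the 6 samples, on a log axis, for all 758 genes. Grey points are the other genes of the panel and coloured points the 29 pathway genes by role. The spread widens below about 50 normalized counts, where the 13 low genes lie, and TGFB2 lies above its neighbours of similar level.

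The panel also holds 38 of 60 further genes of the pathway that were listed as regulators and intracellular partners, or as textbook targets of TGF-β. In the 26 regulators and partners present, 3.85% had an unadjusted limma p under 0.05, against 9.37% of the table. Of these 26, 1 was higher and 0 were lower. That gene was EP300, an acetyltransferase that works with SMAD3, at 1508 ± 40.4 normalized counts in CTL and 1604 ± 13.2 in aCT1 (SD, n = 3 each), a log2 fold change of 0.089 (limma unadjusted p = 0.0271, adjusted p = 0.380). Without CTL replicate 3 its unadjusted limma p was 0.0861, and it also missed 0.05 without CTL replicate 1, aCT1 replicate 1 or aCT1 replicate 3, and in limma without a variance trend (unadjusted p = 0.0601). BAMBI, a decoy receptor, had a log2 fold change of -0.020 (limma standard error 0.051), and SMURF2, a ubiquitin ligase for SMADs and receptors, one of -0.039 (limma standard error 0.030).

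Of the 12 targets, 2 were higher and 1 was lower at an unadjusted limma p under 0.05. This is 25.0%, against 9.37% of the table and 3.85% of the regulators and partners. The groups did not overlap in 5 of the 12 targets and 2 of the 26 regulators and partners, against 14.2% of the table. SNAI1, higher in aCT1 (limma unadjusted p = 0.0807), and MMP9, lower (limma unadjusted p = 0.172), were among the 5. Whether the targets as a list differ from the table was not tested. CDKN2B, which encodes the cyclin-dependent kinase inhibitor p15, had 841, 833 and 901 normalized counts in CTL and 974, 977 and 954 in aCT1. The groups were apart, and the log2 fold change was 0.17 (limma standard error 0.045, unadjusted p = 0.00173, adjusted p = 0.189). TWIST2 had 14.7, 16.9 and 14.1 in CTL and 29.0, 24.9 and 19.4 in aCT1, with means near the median of the non-epithelial markers (limma unadjusted p = 0.0286, adjusted p = 0.394). Without CTL replicate 3 its unadjusted limma p was 0.0694, and it also missed 0.05 without CTL replicate 1, aCT1 replicate 1 or aCT1 replicate 2. CDH2, the N-cadherin gene, was lower, with a log2 fold change of -0.13 (limma unadjusted p = 0.00658, adjusted p = 0.304). The other 9 targets did not reach an unadjusted limma p under 0.05, CDKN1A among them (log2 fold change 0.0039, limma unadjusted p = 0.974). Whether the directions of the targets match a response to TGF-β was not tested. Over the 38 genes, 4 had an unadjusted p under 0.05, or 10.5%, beside the 9.37% of the table, and 0 passed after adjustment.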

How the data were processed

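Total RNA was hybridized to the nCounter Breast Cancer 360 panel. The authors used nSolver to scale the probe counts to housekeeping genes, and deposited a linear signal, the normalized count, and its log2 values. Scaling to positive controls and background subtraction are not given in the sources used here. The log2 values equal the log2 of the deposited linear signal, and each linear value is a whole multiple of its sample's smallest value, within 3e-05. The 2 groups follow the labels, with 3 samples each.

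The log2 values of all 758 genes were fitted in limma 3.58.1 (R 4.3.3), aCT1 minus CTL, with a variance trend, two-sided p-values, and Benjamini-Hochberg adjustment over the table. The threshold was 0.05. Exact permutation tests used the 6 samples. The fit was tested on simulated data. Replicate pairs within a group differed by 2.05 to 4.66 chi-square units per degree of freedom over 433 genes, so none was within counting noise. Standard errors from counting cover counting error only. All 29 genes matched the RefSeq gene table of GRCh38.p14, and 26 of them the table of promoters.

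The genes, the lists and the tests were chosen with earlier results of these data known. The text gives values per sample for genes with an unadjusted p under 0.05, without overlap between groups, with the highest mean of their role, or with a spread over 3 times that of counting, and others by range. Values of TGFB1, INHBB, GDF5, TGFBR2, SMAD3, SMAD5, BAMBI and SMURF2 lie outside these rules and were chosen after they were seen. The fold changes of BMPR2, ACVR1B, SMAD1, SMAD4 and CDKN1A lie outside them as well. Alternatives were limma without a trend, a model without moderation, filters at means of 20 and 50, the study's 459 listed genes, pseudocounts of 1 and 10, median centring, quantile normalization, subtraction of the 10th percentile of each sample, a replicate block, and each sample left out. Planned count-based tests were not run.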

Additional observations from a re-analysis of the deposited data

How the results depend on the processing

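For the 16 genes with a mean of 50 or more, 246 of 272 values under the alternatives kept their direction and their side of an unadjusted p of 0.05. TGFB2 and ZFYVE9 kept both under all 17 alternatives, with log2 fold changes from 0.26 to 0.35 and from 0.090 to 0.13, and ID4 in 15 of 17. The smallest adjusted limma p among the 29 genes ranged from 0.0984, with a filter at 50, to 0.605, without CTL replicate 1, and 0 passed 0.05 under any alternative (limma gave 3 at an unadjusted p under 0.05). The number with an unadjusted p under 0.05 was 3 and lay between 2 and 5 when any sample was dropped, with 5 without CTL replicate 3, while the share of the table lay between 7.26 and 11.3% and was 11.3% in that fit. The number without overlap was 4, and it lay between 5 and 9 when any sample was dropped, where fewer samples make separation easier (9 without CTL replicate 3). The share of the table without overlap was 14.2% and then lay between 20.6 and 29.4%, and was 29.4% without CTL replicate 3. The further pathway genes with an unadjusted p under 0.05 numbered 4, became 7 with quantile normalization (10.9% of the table), and lay between 2 and 5 when any sample was dropped.

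The median log2 fold change of the receptors, -0.053, was -0.016 with background subtracted, and between -0.086 and -0.0084 when any sample was dropped. That of the ID genes, -0.080, was -0.12 with a filter at 50 and over the study's listed genes, both of which lack ID2, and between -0.12 and -0.051 when any sample was dropped. That of the ligands, 0.013, lay between -0.15 and 0.081, that of the SMAD side, 0.092, between 0.041 and 0.12, and the value of LTBP1, -0.13, between -0.23 (without CTL replicate 3) and -0.074. The direction changed for INHBB with quantile normalization (-0.051), lying between -0.061 and 0.076 when any sample was dropped, and for SMAD1 with quantile normalization (-0.0012). TGFB1, near 0, was -0.0016 with median centring, -0.041 with quantile normalization and -0.0080 with background subtracted, and lay between -0.096 and 0.086 when any sample was dropped, and BMPR1A between -0.030 and 0.0066. Other than where stated, the cause was not tested.

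The labels do not say whether same-numbered samples of the groups were prepared together. The correlations of their deviations from the group means over 433 genes were 0.078, 0.19 and -0.23 for replicates 1, 2 and 3. Samples with different numbers gave -0.36 to 0.31, so these correlations neither show a pairing nor exclude one. With the replicate number as a block, 4 of the 29 genes had an unadjusted limma p under 0.05, ID1 being the added gene (unadjusted p = 0.0378), beside 9.23% of the table, and 0 an adjusted p under 0.05. Depth limits the low genes, whose log2 fold changes have standard errors of up to 0.44 from counting. The planned count-based tests were not run.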
